A study of Mus musculus with 2 samples.

Results

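The 45 DNA replication and nucleotide supply genes comprise 19 licensing and helicase genes, 12 genes of the clamp, clamp loader, single-strand binding complex and lagging-strand joining, 9 polymerase and primase genes, and 5 genes of nucleotide supply. They were chosen by symbol, and all 45 were found among the 32285 genes counted in both samples, on 15 chromosomes.

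The data are droplet RNA counts of lens epithelium from wild-type C57BL/6N mouse pups at postnatal day 2 (P2), untreated, in 2 pools of 4 to 8 pups. The vessel net around the young lens (tunica vasculosa) and ciliary tissue were dissected away, and cells were dissociated from the isolated capsules to which the epithelium adheres. The pools held 12314 and 9425 cell barcodes and 93839132 and 86033032 UMIs, the tags by which copies of one captured transcript are told from each other. After filters 10658 cells of pool 1 and 7836 cells of pool 2 were kept, with medians of 6150 and 7906 UMIs, and 27 barcodes occurred in both pools. Every comparison therefore rests on n = 2 pools. The spread it is tested against is how differences between cell groups vary from pool to pool, estimated from all groups in 1 fit.

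Cells were sorted into gates by lists of marker genes that hold none of the 45 genes. Among 17467 lens epithelial cells (LECs), 94.4% of the cells kept, cells passing a list of 19 mitosis genes were called G2M LECs (834 and 671 cells in pools 1 and 2), then those passing a list of 12 replication-dependent histone genes S LECs (817 and 881 cells), and then those passing a list of 12 genes of G1/S entry, such as the cyclins Ccne1 and Ccne2, entry LECs (496 and 485 cells). The remaining LECs were divided into late differentiating (1452 and 1111 cells, by beta and gamma crystallins and fiber membrane genes), early differentiating (1364 and 960 cells, by Cdkn1c, a cell-cycle inhibitor, and 5 other genes), Hes5-high (701 and 746 cells, by a Notch effector), Igfbp5-rich (2283 and 1084 cells) and Igfbp5-poor (2159 and 1423 cells) LECs. The Igfbp5-rich cells outside every other gate are called resting LECs and served as the baseline. Endothelial cells (267 and 194) and mural cells (156 and 212) outside the mitosis and histone gates made up the vascular groups.

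The gates are not sharp borders. Of the 1505 mitosis-gated LECs, 832 (55.3%) also passed the histone gate, and 1504 of the 1698 S LECs (88.6%) also passed the entry gate. Of the 2563 late LECs, 2392 (93.3%) also passed the early gate, so early LECs are those of that gate left after the late gate. The markers given here are on the gate lists. Their high levels in their own gates follow from the gating and do not test the names. Ccne2 stood at 51.3 and 41.8 CPM (the UMIs of a gene scaled to a common total) in entry LECs in pools 1 and 2, against 1.82 and 1.90 CPM in resting LECs, the linker histone gene Hist1h1b at 1111 and 1797 CPM in S LECs, against 4.28 and 11.7 CPM in resting LECs, and the mitotic cyclin gene Ccnb1 at 309 and 269.0 CPM in G2M LECs, against 4.68 and 4.90 CPM in resting LECs. Resting LECs were not free of cycling transcripts, as these values show. The entry genes did not set entry LECs apart from S LECs, where Ccne2 stood at 49.1 and 53.0 CPM. The summed entry list was at 1630 and 1511 CPM in S LECs, against 1515 and 1421 CPM in entry LECs. The summed early list was higher in late LECs (8284 and 8780 CPM) than in early LECs (5847 and 6189 CPM). The summed histone list stood at 2223 and 3407 CPM in G2M LECs, against 3408 and 5699 CPM in S LECs.

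A cell that is to divide first loads the helicase onto its origins. The origin recognition complex (Orc1 to Orc6) recruits Cdc6 and Cdt1, which place the ring of Mcm2 to Mcm7 on DNA, and geminin (Gmnn) blocks Cdt1 once replication has begun, so that no origin is licensed again. The kinase Cdc7 with its activator Dbf4, together with Cdc45 and the GINS proteins, turns the ring into a moving helicase. At the fork the sliding clamp Pcna is loaded by the Rfc complex, single strands are coated by Rpa, primase and polymerase alpha start each strand, and polymerases delta and epsilon extend it. Ribonucleotide reductase (Rrm1 and Rrm2), thymidylate synthase (Tyms), thymidine kinase (Tk1) and dUTPase (Dut) provide the nucleotides and keep uracil out of DNA. In the lens, divisions occur in the epithelium and are lost as cells become fibers.

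Promoters of replication genes are known for E2F sites, and those of genes used late in the cycle for CHR elements, often beside CCAAT boxes, so the bases around the start were searched for these words. Promoters in RefSeq (GRCm38.p6, 250 bases before to 50 after the start) were given for 37 of the 45 genes. The E2F words TTTCCCGC, TTTCGCGC, TTTGCCGC and TTTGGCGC, on either strand, were found for 15 of 37 (40.5%), among them 8 of 14 licensing, 3 of 11 clamp, 4 of 7 polymerase and 0 of 5 nucleotide genes, against 704 of 27025 genes (2.61%) in the whole table. CCAAT on either strand was found for 22 of 37 (59.5%), against 41.1% of all genes, and the CHR word TTTGAA for 7 of 37 (18.9%), against 20.2% of all genes. A match describes the letters in a window and is no evidence of a bound factor. The 4 windows shown here, with those words in capitals, belong to genes whose levels are given in full in the following sections. Orc1 was highest in entry LECs. Pclaf and Rrm2 had the 2 largest differences between S and resting LECs. Dbf4 alone was highest in G2M LECs.
Orc1, chr4:108579324-108579473, plus strand: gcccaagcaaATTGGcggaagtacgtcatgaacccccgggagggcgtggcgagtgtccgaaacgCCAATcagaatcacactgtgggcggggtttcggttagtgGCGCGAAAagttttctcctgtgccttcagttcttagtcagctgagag
Pclaf, chr9:65890203-65890342, plus strand: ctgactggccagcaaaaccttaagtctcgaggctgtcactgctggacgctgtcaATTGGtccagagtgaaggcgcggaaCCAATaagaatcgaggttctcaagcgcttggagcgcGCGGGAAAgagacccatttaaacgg
Rrm2, chr12:24708134-24708273, plus strand: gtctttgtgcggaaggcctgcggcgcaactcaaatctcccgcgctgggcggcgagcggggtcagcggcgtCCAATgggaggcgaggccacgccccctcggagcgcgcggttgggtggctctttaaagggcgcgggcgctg
Dbf4, chr5:8422697-8422836, minus strand: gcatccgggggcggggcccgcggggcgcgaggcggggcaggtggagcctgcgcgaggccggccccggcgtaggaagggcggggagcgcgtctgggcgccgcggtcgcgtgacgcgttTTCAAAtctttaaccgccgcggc
The Orc1 window (150 bases ending 20 bases after the start) held 1 E2F word and CCAAT boxes on both strands, and that of Pclaf (140 bases) likewise. The Rrm2 window held a CCAAT box and no E2F word of these letters. That of Dbf4 held a CHR word and no E2F word.

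**Figure D1:**
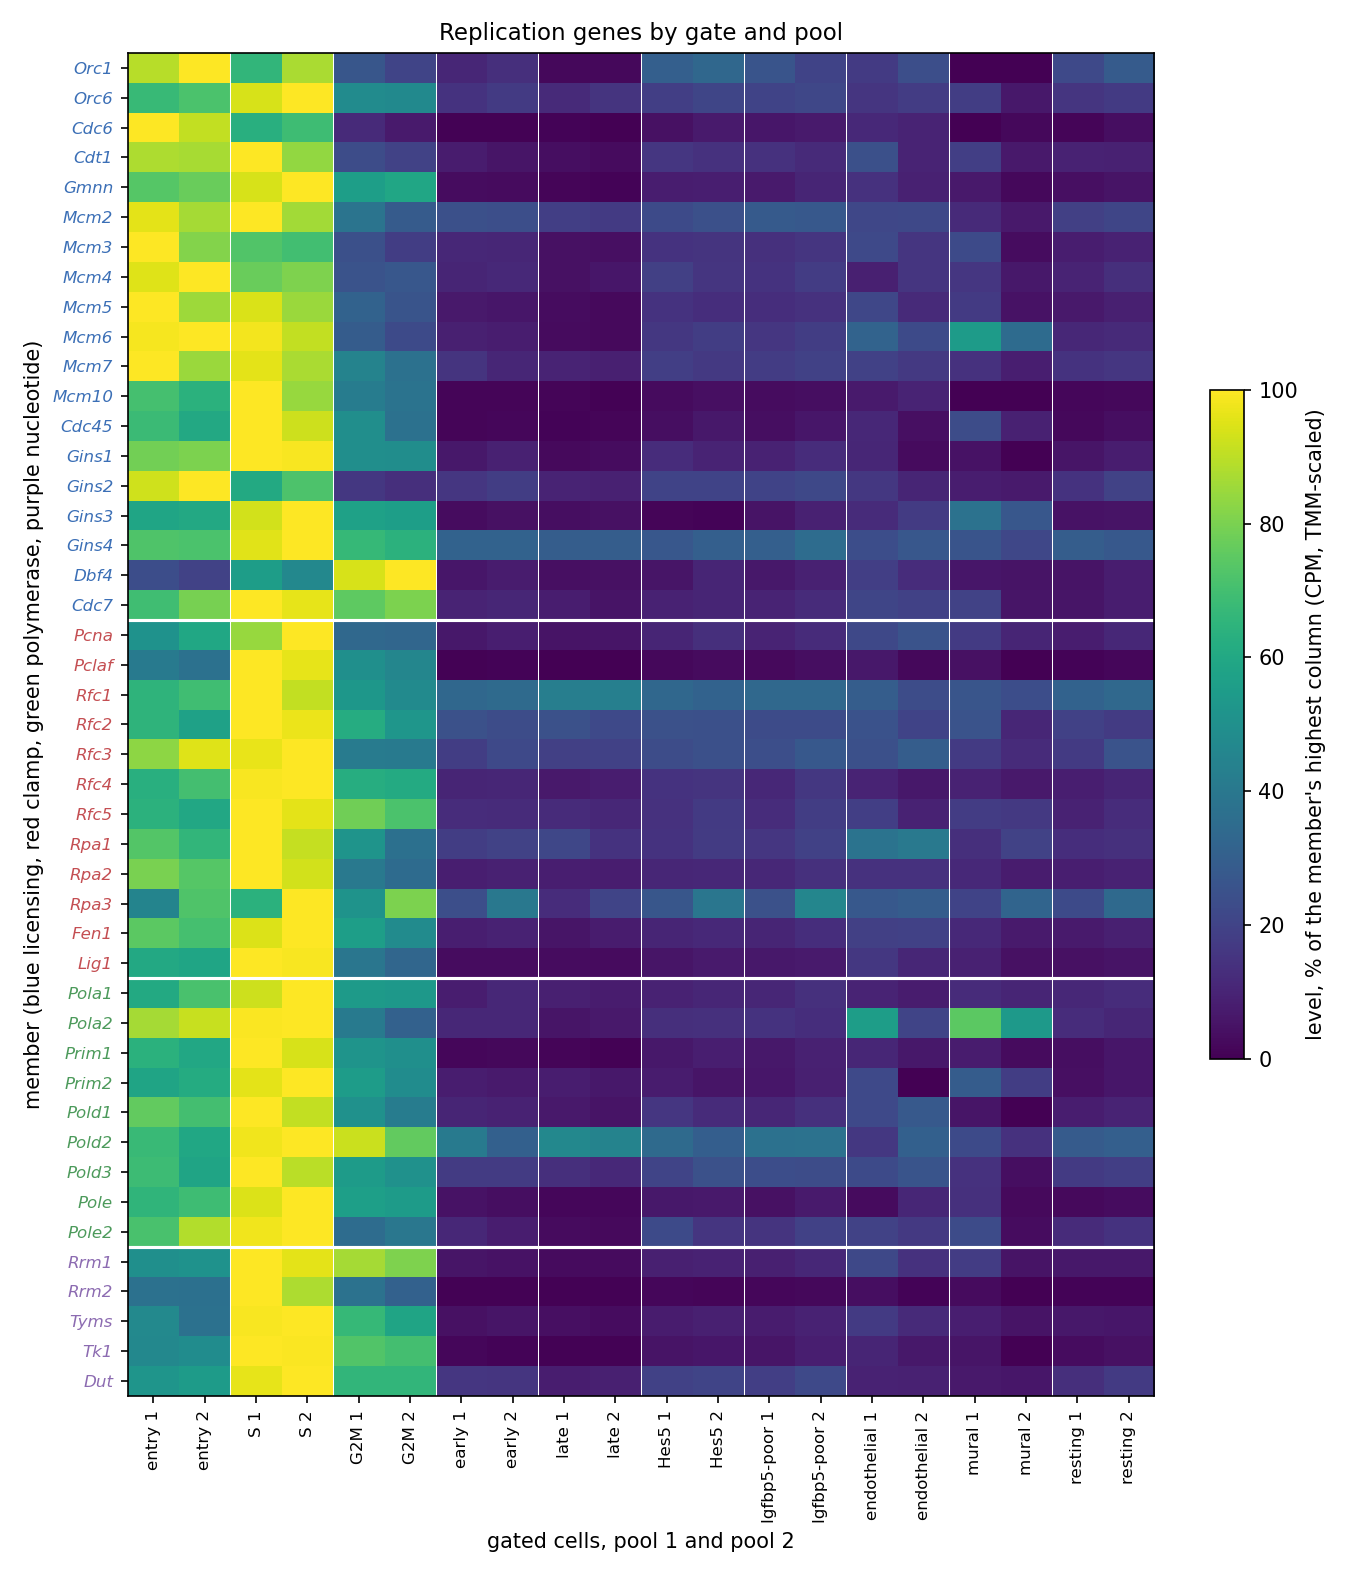
Level of each of the 45 genes (rows, by role) in 10 gates of each pool (columns, pool 1 then pool 2), as a percentage of the gene's own highest column, in CPM scaled by TMM factors. The bright block covers entry, S and G2M LECs for most genes, Dbf4 is brightest in G2M LECs, and Mcm6 and Pola2 are raised in mural cells.

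All 45 genes were higher in S LECs than in resting LECs and all 45 were higher in entry LECs, in edgeR's quasi-likelihood test with the pool as a block and Benjamini-Hochberg adjustment over 13661 genes at 0.05. Of all genes tested, 24.5% were called higher in S LECs and 25.1% lower, and 16.0% were called higher in entry LECs and 12.6% lower. The median log2 fold change of the 45 genes was 3.29 in S LECs (lowest 1.53, highest 6.56) and 2.96 in entry LECs (lowest 1.05, highest 5.47). The median of all genes tested was -0.06 in S LECs. By role, the medians in S LECs were 3.08 for licensing, 3.23 for clamp, 3.09 for polymerase and 4.01 for nucleotide genes. In entry LECs they were 3.25 for licensing, 2.53 for clamp, 2.92 for polymerase and 2.96 for nucleotide genes. The genes outside the 45 that belong to the same pathways behaved less uniformly: of 34 other fork genes 29 were higher in S than in resting LECs and 2 lower, and of 30 other nucleotide genes 25 were higher and 1 lower.

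Levels are given from here on in CPM scaled by TMM factors, pool 1 before pool 2. Among licensing genes, Mcm7, a subunit of the helicase ring, stood at 218.0 and 185.4 CPM in entry, 208.7 and 190.3 in S and 97.6 and 81.4 in G2M LECs, against 32.0 and 34.4 in resting LECs. Gmnn, the inhibitor of relicensing, stood at 219.4 and 230.4 CPM in entry, 279.6 and 298.1 in S and 167.2 and 176.5 in G2M LECs, against 12.1 and 15.6 in resting LECs. Both genes were thus far above the resting level in all 3 cycling gates of both pools, and Gmnn was highest in S LECs where Mcm7 was about level between entry and S LECs. Orc6, the smallest origin recognition subunit, stood at 159.1 and 169.0 CPM in entry, 221.7 and 235.5 in S and 113.2 and 111.5 in G2M LECs, against 36.7 and 39.8 in resting LECs. Mcm10, which binds the starting helicase, had the largest difference of the licensing genes between S and resting LECs, with 44.9 and 40.7 CPM in entry, 63.6 and 53.9 in S and 26.8 and 24.3 in G2M LECs, against 1.21 and 1.47 in resting LECs. Its log2 fold change in S LECs was 5.50 ± 0.16 (SE, adjusted p = 4.5e-36, edgeR).

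Orc1, the ATP-binding origin subunit, had the smallest difference of the licensing genes and was scarce throughout. It stood at 7.86 and 8.81 CPM in entry, 5.80 and 7.70 in S and 2.34 and 1.81 in G2M LECs, against 1.96 and 2.54 in resting LECs, so that its G2M and resting values overlapped. The log2 fold change was 1.62 ± 0.27 in S LECs (SE, adjusted p = 6.6e-07, edgeR) and 1.91 ± 0.29 in entry LECs (adjusted p = 4.5e-07).

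Of the clamp genes, Pclaf, which codes for a small PCNA-binding factor, had the largest difference of its group between S and resting LECs, with 404.1 and 363.8 CPM in entry, 978.3 and 941.4 in S and 487.9 and 448.7 in G2M LECs, against 11.2 and 17.2 in resting LECs. The log2 fold change in S LECs was 6.16 ± 0.12 (SE, adjusted p = 6.6e-45, edgeR). Pcna, the sliding clamp, stood at 250.3 and 292.1 CPM in entry, 414.3 and 490.7 in S and 166.5 and 162.4 in G2M LECs, against 40.0 and 53.9 in resting LECs, a log2 fold change of 3.29 ± 0.07 in S LECs (adjusted p = 1.5e-42). Rfc1, the large subunit of the clamp loader, kept a higher floor, with 151.8 and 161.6 CPM in entry, 233.1 and 212.0 in S and 123.1 and 111.4 in G2M LECs, against 73.5 and 78.6 in resting LECs. Rpa3, the small subunit of the single-strand binding complex, had the smallest difference between S and resting LECs of the 45 genes (1.53 ± 0.07, adjusted p = 3.9e-26, edgeR). It stood at 69.0 and 111.2 CPM in entry, 97.9 and 153.1 in S and 78.4 and 122.7 in G2M LECs, against 34.3 and 52.2 in resting LECs, with pool 2 above pool 1 in each of these gates.

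Of the polymerase genes, Prim1, the catalytic primase subunit, stood at 85.0 and 79.5 CPM in entry, 132.9 and 124.7 in S and 68.7 and 66.1 in G2M LECs, against 4.75 and 8.14 in resting LECs. Pole, the catalytic subunit of polymerase epsilon, had the largest difference of its group (5.08 ± 0.17, SE, adjusted p = 3.2e-33, edgeR), with 32.3 and 34.0 CPM in entry, 46.7 and 49.3 in S and 27.8 and 27.1 in G2M LECs, against 1.28 and 1.601 in resting LECs. Pold2, an accessory subunit of polymerase delta, had the smallest (1.77 ± 0.10, adjusted p = 1.9e-23), with 46.6 and 41.0 CPM in entry, 67.3 and 68.7 in S and 63.2 and 52.1 in G2M LECs, against 19.7 and 20.8 in resting LECs. Pold3, another accessory subunit, stood at 66.8 and 56.9 CPM in entry, 97.2 and 87.1 in S and 53.3 and 49.0 in G2M LECs, against 16.4 and 18.2 in resting LECs. All 4 were highest in S LECs in both pools, and Pold2 alone of them stood higher in G2M than in entry LECs.

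Of the nucleotide genes, Rrm2, the radical-bearing subunit of ribonucleotide reductase, had the largest difference between S and resting LECs of the 45 genes (6.56 ± 0.11, SE, adjusted p = 3.6e-48, edgeR). Its levels were 158.6 and 155.7 CPM in entry, 423.6 and 371.6 in S and 160.4 and 132.2 in G2M LECs, against 3.84 and 4.94 in resting LECs. Dut, whose enzyme removes dUTP, had the smallest difference of the 5 (2.71 ± 0.06, adjusted p = 1.5e-43), with 423.7 and 445.9 CPM in entry, 782.2 and 813.1 in S and 534.4 and 536.4 in G2M LECs, against 109.6 and 136.8 in resting LECs. Across the 45 genes the resting level was a median of 10.4% of the S level and ran from 1.104% to 34.4%, with medians of 11.99% for licensing, 10.9% for clamp, 11.7% for polymerase and 6.22% for nucleotide genes.

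**Figure D2:**
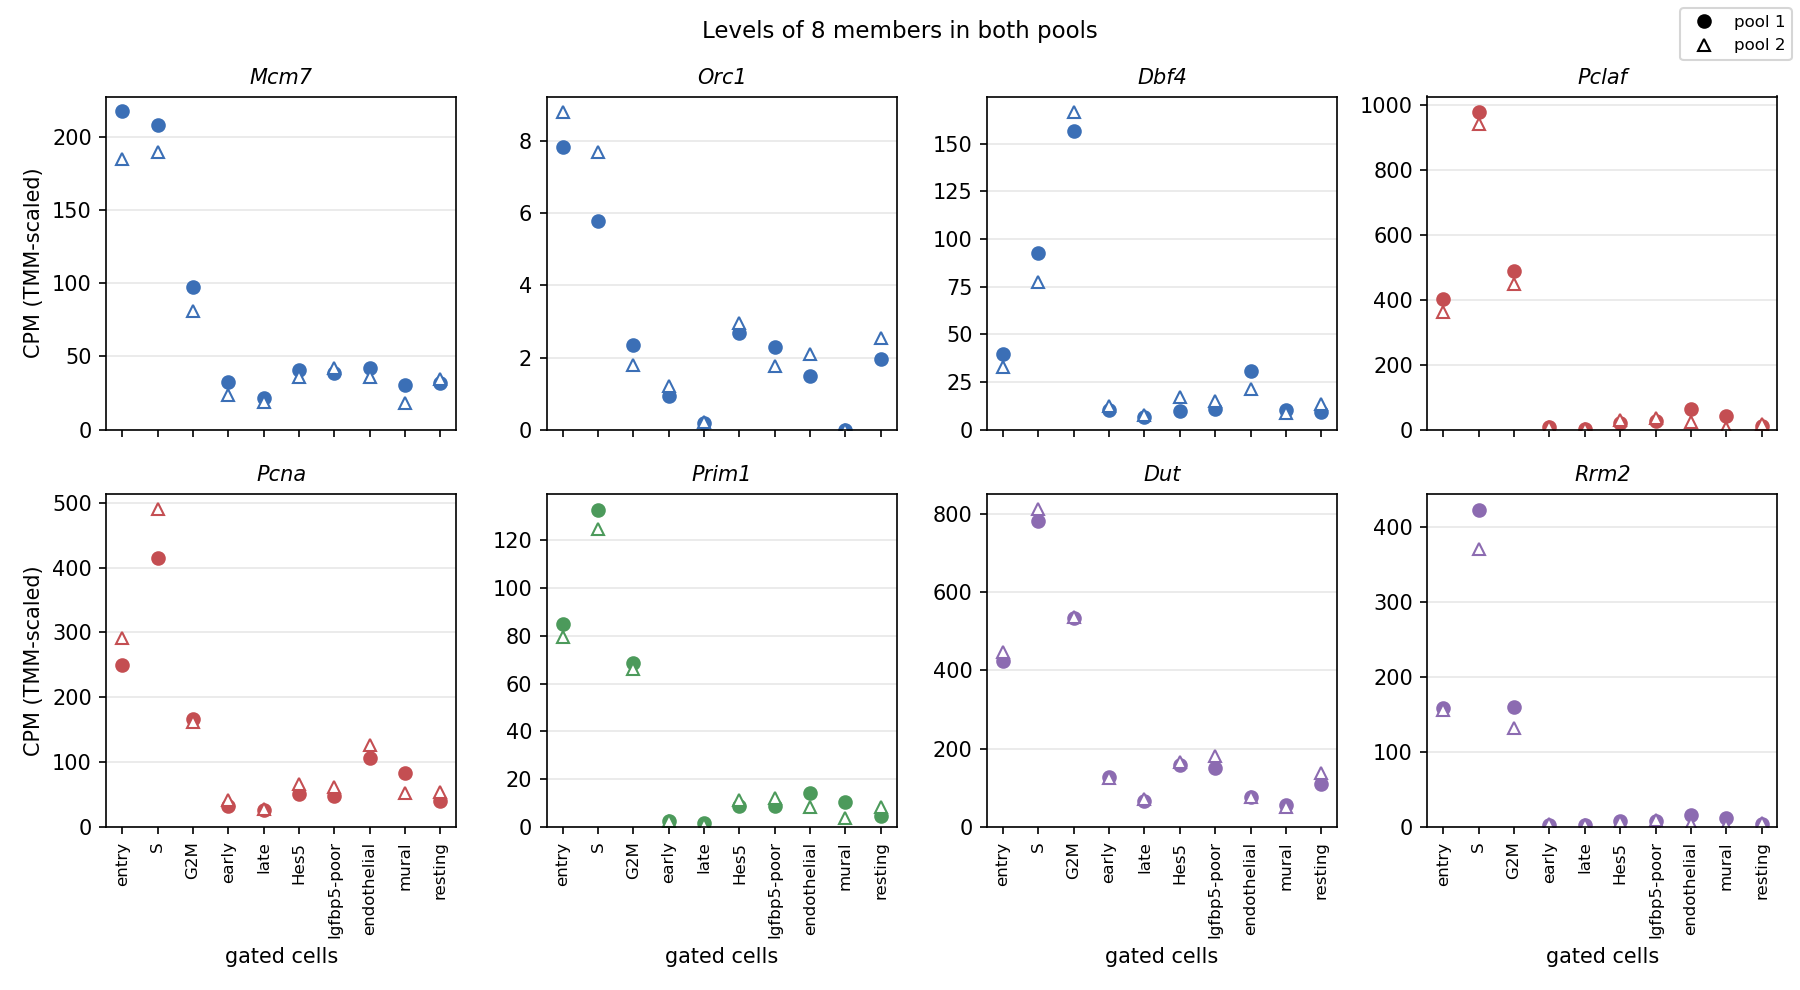
Levels of 8 of the 45 genes in 10 gates (CPM scaled by TMM factors, linear axes from 0 with a scale for each gene), with filled circles for pool 1 and open triangles for pool 2. Pclaf and Rrm2 are near 0 outside entry, S and G2M LECs, Dut keeps over 100 CPM in resting LECs, Orc1 is highest in entry LECs, and Dbf4 is highest in G2M LECs, with 156.7 and 166.8 CPM.

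The roles differed in which cycling gate held their highest level. The same lens gate was highest in both pools for 42 of 45 genes. It was the S gate for 34 genes, namely 8 of 19 licensing genes and every clamp, polymerase and nucleotide gene. It was the entry gate for 7 genes, all of them licensing genes (Orc1, Cdc6, Mcm3, Mcm4, Mcm5, Mcm6 and Gins2), and the G2M gate for Dbf4 alone. Cdt1, Mcm2 and Mcm7 were highest in S LECs of one pool and entry LECs of the other. The entry level was a median of 94.9% of the S level for licensing, 68.6% for clamp, 68.7% for polymerase and 48.0% for nucleotide genes, and the G2M level a median of 43.5% for licensing, 50.7% for clamp, 53.0% for polymerase and 67.1% for nucleotide genes. The licensing genes ranked first of the roles in entry LECs and last in G2M LECs, and the nucleotide genes the other way round.

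Between S and entry LECs 31 of the 45 genes were called higher and 4 lower in the edgeR test, against 9.70% and 6.04% of all genes tested, with a median log2 fold change of 0.48. All 5 nucleotide genes were higher in S LECs (median 1.06), as were 11 of 12 clamp genes (median 0.54) and 7 of 9 polymerase genes (median 0.54), but only 8 of 19 licensing genes (median 0.07). Rrm2 had the largest difference (1.33 ± 0.07, SE, adjusted p = 7.6e-23), followed by Pclaf (1.32 ± 0.09, adjusted p = 2.5e-19). The 4 genes that were lower were all licensing genes, here named after their values were seen: Gins2, a subunit of the GINS complex (-0.54 ± 0.08, adjusted p = 2.4e-07), Cdc6, the helicase loader (-0.52 ± 0.11, adjusted p = 0.00054), Mcm3 (-0.34 ± 0.08, adjusted p = 0.0018) and Mcm4 (-0.31 ± 0.08, adjusted p = 0.0019), both subunits of the helicase ring. Cdc6 stood at 33.3 and 36.4 CPM in S LECs, against 52.8 and 47.9 CPM in entry LECs, and Gins2 at 92.6 and 109.5 CPM in S LECs, against 141.4 and 152.1 CPM in entry LECs, without overlap between the gates. These 4 calls depended on the limits of the gates: with limits 25% lower none was made, with DESeq2 or without the pool block 1 was made, and Cdc6, Mcm3 and Mcm4 changed sign to 0.01, 0.04 and 0.08 at the lower limits.

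Between G2M and S LECs 44 genes were lower and 1 was higher, against 11.9% and 10.9% of all genes, with a median log2 fold change of -1.02. The gene that was higher was Dbf4, the activating subunit of the Cdc7 kinase, with 156.7 and 166.8 CPM in G2M LECs, against 92.6 and 77.6 CPM in S LECs (0.94 ± 0.08, SE, adjusted p = 2.7e-14, edgeR). In entry LECs Dbf4 stood at 39.6 and 32.6 CPM and in resting LECs at 9.04 and 13.2 CPM, so that its order was resting, entry, S and G2M in both pools. Its partner Cdc7 fell, but by little (-0.34 ± 0.10, adjusted p = 0.008), a call that 4 alternatives lost. The deepest falls were those of licensing genes, with a median of -1.197: Cdc6 fell to 6.24 and 3.75 CPM in G2M LECs, against 33.3 and 36.4 CPM in S LECs (-2.79 ± 0.16, adjusted p = 1.9e-21), and Gins2 to 24.7 and 20.6 CPM, against 92.6 and 109.5 CPM (-2.15 ± 0.10, adjusted p = 1.1e-26). The medians of clamp and polymerase genes were -0.98 and -0.92. Nucleotide genes fell least, with a median of -0.57, and within that group the 2 subunits of ribonucleotide reductase parted. Rrm2 fell to 160.4 and 132.2 CPM in G2M LECs, against 423.6 and 371.6 CPM in S LECs (-1.44 ± 0.07, adjusted p = 3.6e-26), whereas Rrm1 was at 176.9 and 164.8 CPM in G2M LECs, against 204.4 and 195.9 CPM in S LECs (-0.23 ± 0.07, adjusted p = 0.0071). The call for Rrm1 was lost in 4 alternatives. Of the 44 lower calls between G2M and S LECs, 36 held in every alternative.

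**Figure D3:**
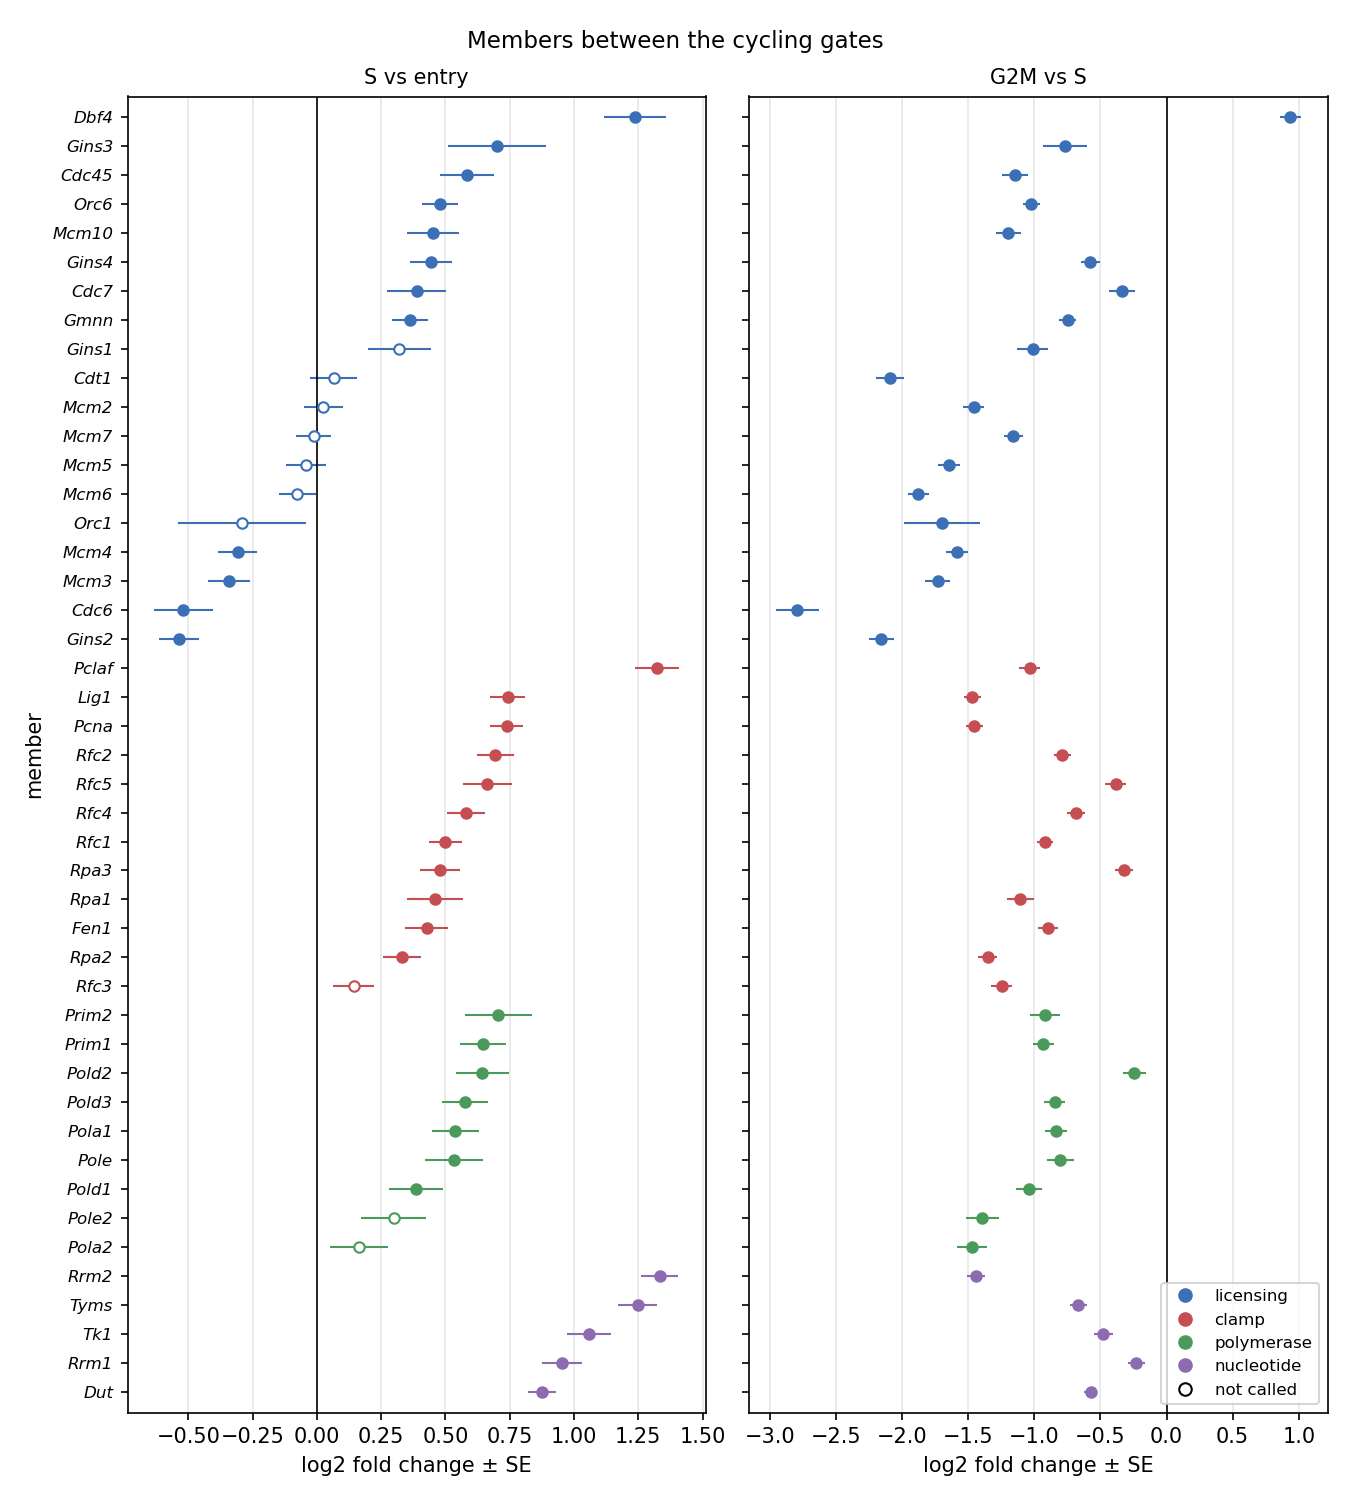
Log2 fold change ± SE of each gene in S against entry LECs (left) and in G2M against S LECs (right) from the edgeR fit, colored by role, with open circles for genes that did not pass an adjusted p of 0.05. Nucleotide genes lie furthest to the right on the left panel beside Pclaf and Dbf4, and on the right panel Dbf4 alone lies above 0.

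Against resting LECs, 43 genes were higher in G2M LECs and none was lower (24.1% and 22.8% of all genes), with a median log2 fold change of 2.14. Orc1 (-0.08 ± 0.35, SE, adjusted p = 0.88, edgeR) and Gins2 (-0.17 ± 0.12, adjusted p = 0.23) were not called. With the 832 mitosis-gated cells that also passed the histone gate left out, 34 were called higher, 4 lower (Cdc6, Cdt1, Mcm6 and Gins2), and the median was 1.06. Cdc6 then stood at -2.73 and Mcm6 at -0.41, both below resting LECs.

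To follow the genes in finer steps, S LECs were divided at a mitosis score of 0.4, chosen after the data were seen, and G2M LECs by the histone gate, which with entry LECs gave 5 steps of 173 to 644 cells per pool. These values are plain CPM and a description without a test. Cdc6 stood at 55.5 and 48.9, 41.0 and 58.6, 32.3 and 26.3, 11.0 and 6.68, and 0 and 0.31 CPM in steps 1 to 5, where 3 UMIs in the last step of pool 1 would be 1.002 CPM. Dbf4 went the other way, at 41.6 and 33.3, 64.7 and 58.6, 101.6 and 83.5, 144.6 and 150.8, and 191.7 and 191.1 CPM. Cdc6 was thus all but absent from mitosis-gated cells outside the histone gate, the same cells in which Dbf4 was highest. Pcna stood at 263.1 and 298.4, 467.6 and 493.2, 412.6 and 477.5, 251.9 and 247.4, and 60.8 and 64.4 CPM. Rrm2 stood at 166.7 and 159.1, 453.7 and 401.7, 427.6 and 349.9, 239.7 and 200.1, and 62.8 and 53.8 CPM. Rrm1 stood at 106.8 and 106.8, 174.4 and 169.9, 216.8 and 201.8, 209.0 and 192.4, and 150 and 136.3 CPM, one step later than Rrm2 at its highest and less reduced at the end.

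Of the 45 genes, 21 were highest in step 2 in both pools (11 licensing, 6 clamp and 3 polymerase genes and, of the nucleotide genes, Rrm2), 7 in step 3 (Rfc2, Rfc4, Prim2, Rrm1, Tyms, Tk1 and Dut), Dbf4 in step 5, and none in steps 1 and 4. The other genes had different highest steps in the 2 pools. Of the genes highest in the entry gate, Mcm4, Mcm5 and Mcm6 were highest in step 2 of both pools once S LECs were divided. Orc1, Cdc6, Mcm3 and Gins2 were highest in step 1 of pool 1 and in step 2 of pool 2. Summed over the 19 licensing genes, the levels were 2231 and 2072, 2671 and 2448, 2157 and 1975, 1397 and 1281, and 710 and 678 CPM in steps 1 to 5. Summed over the 5 nucleotide genes, they were 973 and 948, 1868 and 1788, 1986 and 1893, 1617 and 1500, and 808 and 794 CPM. Licensing sums in step 1 were thus close to those of step 3, whereas nucleotide sums in step 1 lay far below every later step but the last.

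**Figure D4:**
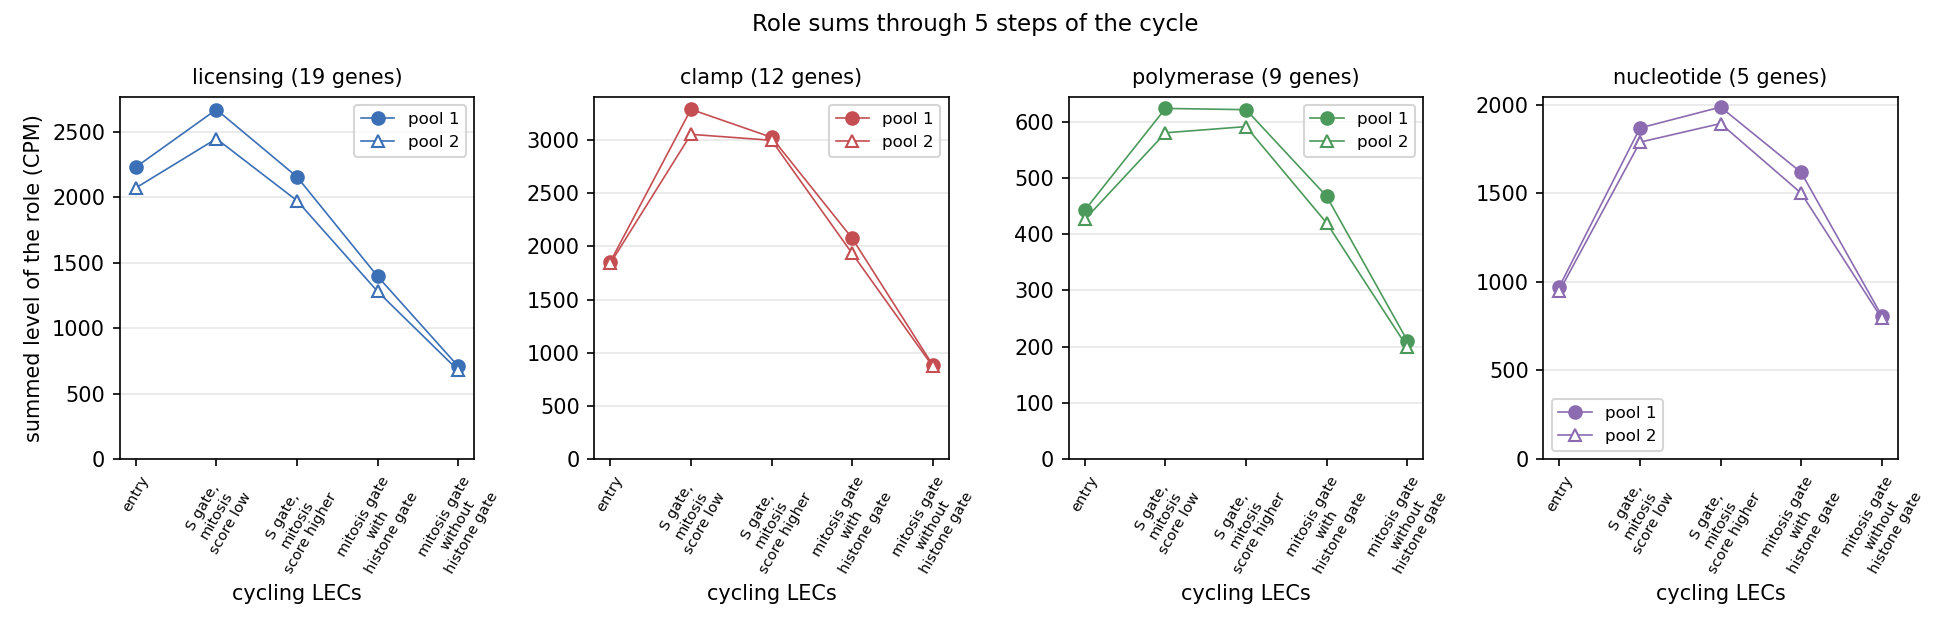
Summed level of each role (plain CPM, linear axes from 0) in 5 steps of cycling LECs, with filled circles for pool 1 and open triangles for pool 2. Licensing and clamp sums are highest in S LECs with a low mitosis score, nucleotide sums in S LECs with a higher mitosis score, at 1986 and 1893 CPM, and all 4 are lowest in mitosis-gated cells outside the histone gate.

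The largest differences among the other fork genes in S against resting LECs were those of Top2a, the topoisomerase that separates sister strands (6.19 ± 0.11, SE, edgeR, 732.1 and 626.4 CPM in S LECs, against 9.57 and 8.94 in resting LECs), Clspn, a fork checkpoint mediator (5.92 ± 0.15, 156.2 and 156.7 CPM in S LECs, against 2.64 and 2.402 in resting LECs), and Dscc1, of an alternative clamp loader (5.41 ± 0.14). Among the other nucleotide genes, large differences were those of Shmt1, a serine hydroxymethyltransferase (3.81 ± 0.16, 40.7 and 45.9 CPM in S LECs, against 3.09 and 3.07 in resting LECs), and Dck, deoxycytidine kinase (2.997 ± 0.13, 45.8 and 52.9 CPM in S LECs, against 5.12 and 7.74 in resting LECs). The median log2 fold change was 2.22 for the other fork genes and 0.87 for the other nucleotide genes, which include purine and pyrimidine synthesis, against 3.29 for the 45 genes.

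Most of these transcripts made up a smaller share of the UMIs in late differentiating than in resting LECs. In the early gate the calls were close in number to the share of all genes. The levels are shares of a group's UMIs, and numbers of transcripts per cell were not compared. In early differentiating LECs 6 of the 45 genes were called higher and 10 lower in the edgeR test, against 20.8% and 18.8% of all genes, with a median log2 fold change of -0.04. With gate limits 25% higher 19 were lower in early LECs, and on plain CPM, without the scaling factors, 25 were lower and 11 higher in both pools, against 43.9% and 32.8% of all genes. In late differentiating LECs 4 were higher and 31 lower, against 31.4% and 29.3% of all genes, with a median of -0.70. By role, the late gate had 15 of 19 licensing genes lower (median -1.06), 5 of 12 clamp genes (median -0.16), 6 of 9 polymerase genes (median -0.50) and all 5 nucleotide genes (median -1.12), and 31 genes had their lowest lens level in the late gate in both pools. The early and late gates share resting LECs as their baseline. The cells of the gates were of unequal depth, with medians of 6795 and 9009 UMIs in early, 11302 and 12717 in late and 5405 and 6615 in resting LECs, and with each cell thinned to 2000 UMIs 20 genes were called lower and 2 higher in the late gate, and 3 lower and 2 higher in the early gate.

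Orc1 had the largest fall in late LECs, to 0.94 and 1.2 CPM in early and 0.17 and 0.20 CPM in late LECs, against 1.96 and 2.54 CPM in resting LECs (late -3.43 ± 0.54, SE, adjusted p = 1.9e-07, edgeR). The late values of Orc1 rest on very few UMIs, so the size of its fall is uncertain. Pclaf stood at 7.09 and 8.16 CPM in early and 2.87 and 1.204 CPM in late LECs, against 11.2 and 17.2 CPM in resting LECs (late -2.67 ± 0.31, adjusted p = 7.4e-11). Tk1, the salvage enzyme for thymidine, stood at 4.59 and 2.64 CPM in early and 1.56 and 1.41 CPM in late LECs, against 7.91 and 11.2 CPM in resting LECs (late -2.60 ± 0.29, adjusted p = 1.1e-11). Prim1 stood at 2.29 and 2.64 CPM in early and 1.65 and 0.80 CPM in late LECs, against 4.75 and 8.14 CPM in resting LECs. In all 4 genes neither pool's late value overlapped the resting values, and the early values lay between. Gmnn, at 9.48 and 9.24 CPM in early and 4.52 and 3.41 CPM in late LECs, against 12.1 and 15.6 CPM in resting LECs, had the same order (late -1.75 ± 0.19, adjusted p = 9.8e-12). Mcm10 was scarce in all 3, at 0.83 and 0.84 CPM in early and 0.87 and 0.30 CPM in late LECs, against 1.21 and 1.47 CPM in resting LECs. It was called lower in the late gate, a call that 4 alternatives lost.

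Other genes named by the same rule differed less in the early gate, or not past the threshold. Dut stood at 127.8 and 124.9 CPM in early and 65.8 and 70.7 CPM in late LECs, against 109.6 and 136.8 CPM in resting LECs (early 0.06 ± 0.06, SE, adjusted p = 0.53, and late -0.84 ± 0.07, adjusted p = 1.1e-16, edgeR). Mcm7 stood at 32.4 and 23.8 CPM in early and 21.6 and 19.2 CPM in late LECs, against 32.0 and 34.4 CPM in resting LECs. Orc6 stood at 34.9 and 39.6 CPM in early and 27.8 and 35.6 CPM in late LECs, against 36.7 and 39.8 CPM in resting LECs, a small fall in the late gate (-0.28 ± 0.09, adjusted p = 0.0097). Rrm2 stood at 1.98 and 3.24 CPM in early and 1.82 and 1.81 CPM in late LECs, against 3.84 and 4.94 CPM in resting LECs, and was called in the late gate only (adjusted p = 0.051 in the early and 0.00058 in the late gate), a difference between the gates that was not tested. Pcna stood at 31.8 and 41.5 CPM in early and 25.8 and 27.6 CPM in late LECs, against 40.0 and 53.9 CPM in resting LECs, and was called lower in both. Pold3 stood at 17.0 and 16.9 CPM in early and 13.1 and 11.1 CPM in late LECs, against 16.4 and 18.2 CPM in resting LECs, and Rpa3 at 36.8 and 61.1 CPM in early and 19.6 and 31.3 CPM in late LECs, against 34.3 and 52.2 CPM in resting LECs. Pole had few UMIs, at 2.50 and 1.80 CPM in early and 0.96 and 0.90 CPM in late LECs, against 1.28 and 1.601 CPM in resting LECs, and was called in neither gate.

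The 4 genes called higher in late LECs were Pold2, Rpa1 (the large subunit of the single-strand binding complex), Rfc1 and Rfc2 (both of the clamp loader). Pold2 stood at 32.0 and 30.8 CPM in late LECs, against 19.7 and 20.8 CPM in resting LECs (0.65 ± 0.11, SE, adjusted p = 3.1e-07, edgeR), and Rfc1 at 99.7 and 100.4 CPM in late LECs, against 73.5 and 78.6 CPM in resting LECs (0.40 ± 0.07, adjusted p = 3.2e-07). These directions rest on the scaling. The TMM factors of late LECs were 0.70 and 0.72, and those of resting LECs 1.05 and 1.02. On plain CPM, without the factors, Rfc1 was at 69.4 and 71.9 in late LECs, against 77.4 and 80.1 in resting LECs, Rfc2 at 33.5 and 30.9 in late LECs, against 39.4 and 34.96 in resting LECs, Rpa1 at 9.38 and 6.54 in late LECs, against 8.72 and 8.84 in resting LECs, and Pold2 at 22.3 and 22.1 in late LECs, against 20.7 and 21.2 in resting LECs. On that scale 42 of the 45 genes were lower in late than in resting LECs in both pools and 1, Pold2, was higher in both, against 73.0% and 15.7% of all genes. Of the 16 calls in the early gate, Rfc2 (higher, 0.39 ± 0.09, adjusted p = 0.00018) and Lig1, the ligase of lagging-strand pieces (lower, -0.54 ± 0.15, adjusted p = 0.0023), were the 2 made under every alternative with a test. In early LECs Pold2 stood at 27.9 and 21.0 CPM and Rfc1 at 77.5 and 80.7 CPM.

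**Figure D5:**
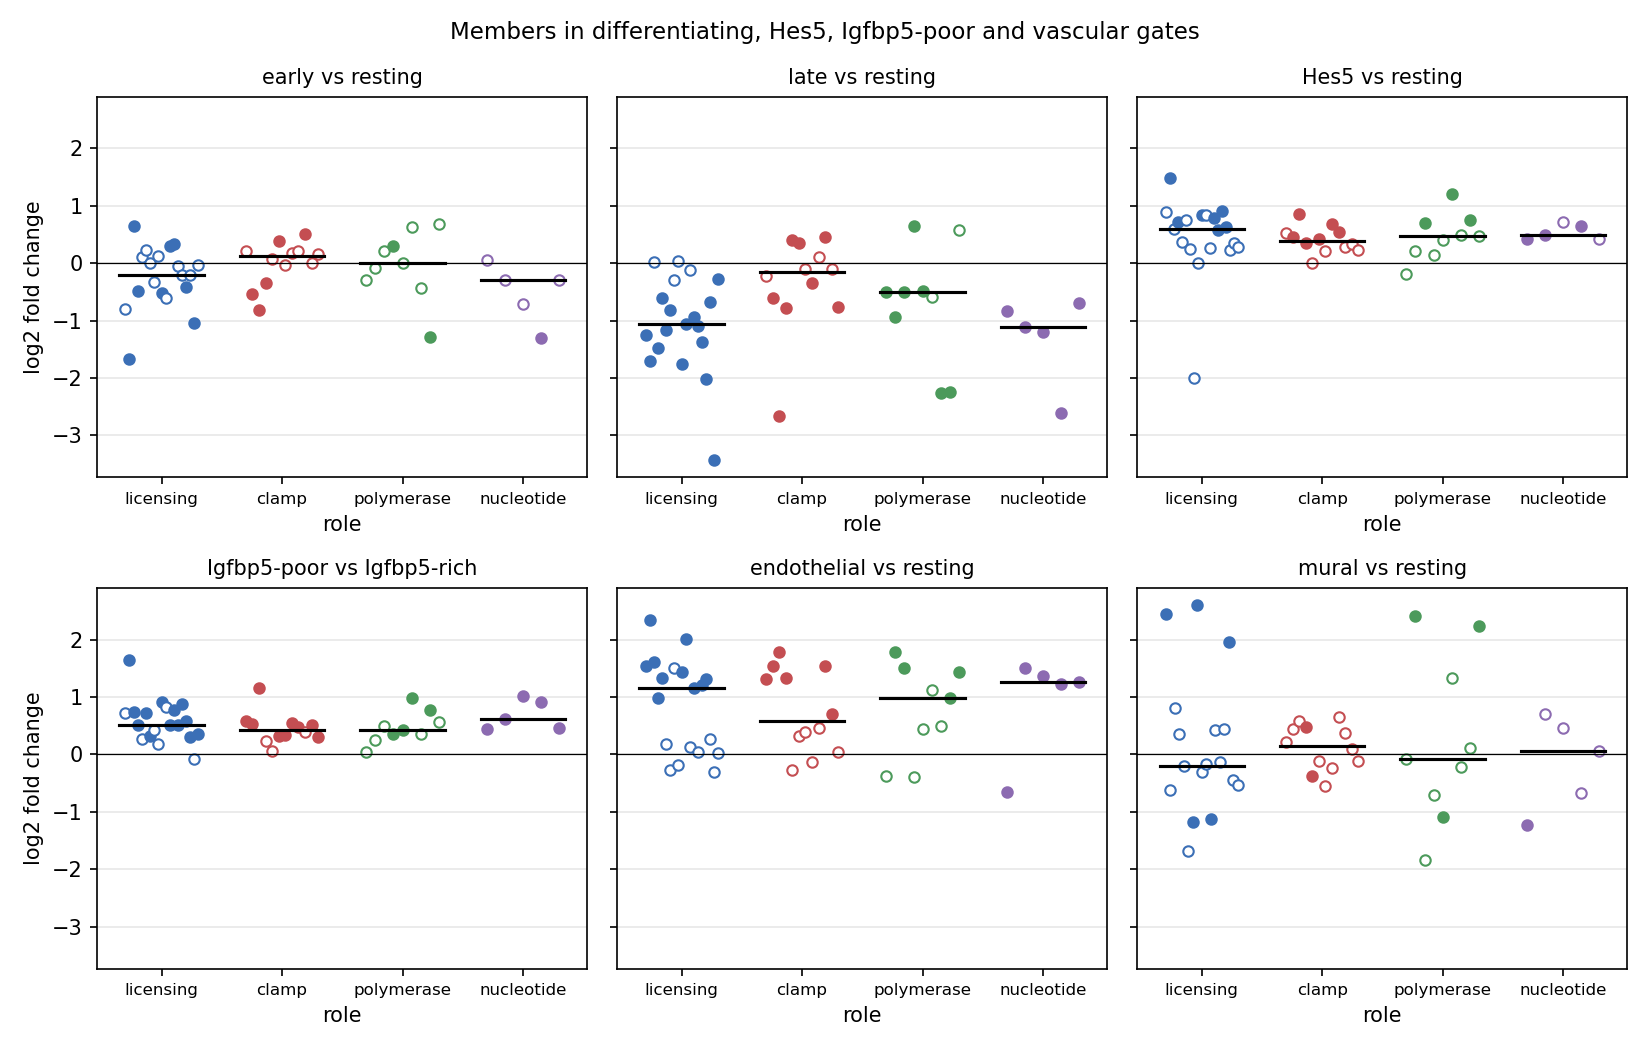
Log2 fold change of each gene against resting (Igfbp5-rich) LECs in early and late differentiating, Hes5-high and Igfbp5-poor LECs and in endothelial and mural cells, by role, with filled points for genes past an adjusted p of 0.05 and a bar at the median of each role. Late LECs lie mostly below 0 and Igfbp5-poor LECs mostly above 0. Orc1 and Mcm10 in mural cells, both with 0 UMIs, lie below the axis and are not drawn.

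In the 2 other gates outside the cycle the genes were slightly above the Igfbp5-rich level. In Hes5-high LECs 19 were called higher and 0 lower (6.39% and 4.87% of all genes), with a median log2 fold change of 0.48, and at an unadjusted p under 0.05 there were 31 higher and 1 lower in edgeR, against 12.4% and 10.5% of all genes. In Igfbp5-poor LECs 31 were higher and 0 lower (9.16% and 7.67% of all genes), with a median of 0.50, and at an unadjusted p under 0.05 there were 37 higher and 0 lower, against 14.8% and 12.8% of all genes. By role, Hes5-high LECs had 7 licensing, 6 clamp, 3 polymerase and 3 nucleotide genes higher, and Igfbp5-poor LECs 13 licensing, 9 clamp, 4 polymerase and all 5 nucleotide genes. Gmnn stood at 24.1 and 24.6 CPM in Hes5-high and 21.1 and 30.9 CPM in Igfbp5-poor LECs, against 12.1 and 15.6 CPM in resting LECs (0.84 ± 0.16, SE, adjusted p = 8.3e-05, and 0.91 ± 0.13, adjusted p = 2.2e-07, edgeR). Dut stood at 158.4 and 166.1 CPM in Hes5-high and 150.8 and 180.5 CPM in Igfbp5-poor LECs, against 109.6 and 136.8 CPM in resting LECs (0.41 ± 0.07, adjusted p = 6e-06, and 0.44 ± 0.06, adjusted p = 1.3e-07). For both genes every Hes5-high and Igfbp5-poor value lay above both resting values. Both gates were set against the same resting cells.

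Pclaf stood at 19.5 and 28.1 CPM in Hes5-high and 24.9 and 36.3 CPM in Igfbp5-poor LECs, against 11.2 and 17.2 CPM in resting LECs, and Rrm2 at 7.31 and 6.48 CPM in Hes5-high and 7.81 and 9.56 CPM in Igfbp5-poor LECs, against 3.84 and 4.94 CPM in resting LECs. Prim1 stood at 8.53 and 11.4 CPM in Hes5-high and 8.66 and 12.2 CPM in Igfbp5-poor LECs, against 4.75 and 8.14 CPM in resting LECs, and Pole at 3.17 and 3.34 CPM in Hes5-high and 2.12 and 3.63 CPM in Igfbp5-poor LECs, against 1.28 and 1.601 CPM in resting LECs. Pcna stood at 50.7 and 66.2 CPM in Hes5-high and 48.0 and 61.1 CPM in Igfbp5-poor LECs, against 40.0 and 53.9 CPM in resting LECs. Within each pool all 5 genes were higher in both gates than in resting LECs, although Rrm2 was not called in Hes5-high LECs nor Pcna in Igfbp5-poor LECs. Mcm7 stood at 40.4 and 35.9 CPM in Hes5-high and 38.7 and 42.3 CPM in Igfbp5-poor LECs, against 32.0 and 34.4 CPM in resting LECs, and Orc6 at 43.6 and 49.5 CPM in Hes5-high and 47.0 and 50.5 CPM in Igfbp5-poor LECs, against 36.7 and 39.8 CPM in resting LECs. Pold2 stood at 23.6 and 20.6 CPM in Hes5-high and 25.6 and 25.8 CPM in Igfbp5-poor LECs, against 19.7 and 20.8 CPM in resting LECs, and Pold3 at 20.0 and 24.2 CPM in Hes5-high and 22.9 and 22.6 CPM in Igfbp5-poor LECs, against 16.4 and 18.2 CPM in resting LECs. Not called in either gate were Mcm10 (1.95 and 2.55 CPM in Hes5-high and 2.21 and 2.42 CPM in Igfbp5-poor LECs, against 1.21 and 1.47 CPM in resting LECs), Orc1 (2.68 and 2.95 CPM in Hes5-high and 2.29 and 1.76 CPM in Igfbp5-poor LECs, against 1.96 and 2.54 CPM in resting LECs) and Rfc1 (78.2 and 72.9 CPM in Hes5-high and 79.1 and 79.1 CPM in Igfbp5-poor LECs, against 73.5 and 78.6 CPM in resting LECs). Rpa3 stood at 41.2 and 60.3 CPM in Hes5-high and 38.1 and 70.4 CPM in Igfbp5-poor LECs, against 34.3 and 52.2 CPM in resting LECs. Mcm7, Orc6, Pold2, Pold3 and Rpa3 were called higher in Igfbp5-poor but not in Hes5-high LECs, and each of these calls was lost in 2 to 4 alternatives.

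These calls moved with the limits of the lens gates. With all limits 25% lower at once, with which the late gate grew most (3160 and 2108 cells, against 1452 and 1111 at the limits used), 8 genes were higher in Hes5-high LECs and 10 in Igfbp5-poor LECs, with medians of 0.34 and 0.29, and which of the limits this rests on was not tested. The summed mitosis list, 19 genes, stood at 161 and 196 CPM in Hes5-high and 192 and 265 CPM in Igfbp5-poor LECs, against 131 and 170 CPM in resting LECs, and the summed entry list at 223 and 210 CPM in Hes5-high and 207 and 207 CPM in Igfbp5-poor LECs, against 206 and 194 CPM in resting LECs. The part of these lists in the result was not tested. Under all alternatives with a test, the calls for Gmnn, Dut and Mcm5 held in both gates, those for Mcm6 and Rfc4 in Hes5-high LECs, and that for Mcm2 in Igfbp5-poor LECs.

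Cldn5 and Rgs5 are on the lists that gated the vascular cells, so their levels there do not test the names. Cldn5, of endothelial tight junctions, was at 3163 and 3487 CPM in endothelial cells, against 1.82 and 1.22 CPM in resting LECs. Rgs5, a pericyte gene, was at 16740 and 17540 CPM in mural cells, against 2.46 and 3.13 CPM in resting LECs. The lens crystallin Cryaa was at 827 and 769 CPM in endothelial and 988 and 859 CPM in mural cells, against 13160 and 10670 CPM in resting LECs, and its part in the following values was not tested. In endothelial cells 24 of the 45 genes were called higher than in resting LECs and 1 lower (27.7% and 28.1% of all genes), with a median log2 fold change of 1.12. In mural cells 6 were higher and 6 lower (23.1% and 23.4% of all genes), with a median of -0.11, where the median of all genes was -0.14. The count in mural cells was thus no larger than that over all genes.

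Both results changed with the cells that had passed the entry gate, 38 of 461 endothelial and 11 of 368 mural cells, an alternative added after the data were seen. Without them 12 genes were higher and 4 lower in endothelial cells, against 26.2% and 27.8% of all genes, so that the share called higher was close to that of all genes, and the median was 0.10. In mural cells 4 were higher and 14 lower, against 22.6% and 23.6% of all genes, and the median was -0.43. Pool 1 carried much of the endothelial difference: without pool 1 the median of the 45 genes was 0.21, and without pool 2 it was 1.30. In mural cells it was -0.61 without pool 1 and 0.41 without pool 2, a change of direction. The summed mitosis list was at 387 and 121 CPM in endothelial cells and 63.1 and 46.1 CPM in mural cells, against 131 and 170 CPM in resting LECs.

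The endothelial genes called higher both with and without the entry-gated cells were Gmnn, Mcm3, Mcm6, Dbf4, Pcna, Rpa1, Fen1 (the flap nuclease), Lig1, Pola2, Pold1, Rrm1 and Tyms. Pcna stood at 105.5 and 126.4 CPM in endothelial cells, against 40.0 and 53.9 CPM in resting LECs (1.32 ± 0.13, SE, adjusted p = 4.9e-13, edgeR), and without entry-gated cells its log2 fold change was 0.94. Rrm1 stood at 44.1 and 29.5 CPM in endothelial cells, against 13.6 and 12.9 CPM in resting LECs (1.51 ± 0.22, adjusted p = 2e-08, and 0.89 without those cells). Pcna was above the resting level in both pools by a wide gap, and so was Rrm1. Dut was the gene called lower in both settings, with 77.1 and 75.9 CPM in endothelial cells, against 109.6 and 136.8 CPM in resting LECs (-0.66 ± 0.12, adjusted p = 2.6e-06, and -1.03 without those cells). The nucleotide genes of endothelial cells thus went in opposite directions.

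Several other endothelial values depended on one pool or on the entry-gated cells. Pclaf stood at 63.6 and 22.1 CPM in endothelial cells, against 11.2 and 17.2 CPM in resting LECs, Rrm2 at 15.7 and 4.22 CPM, against 3.84 and 4.94 CPM, and Mcm10 at 4.49 and 6.32 CPM, against 1.21 and 1.47 CPM. Rrm2 was called higher with both pools, but without pool 1 its log2 fold change was -0.22 and without pool 2 it was 1.95, and Mcm10 stood at -0.40 without entry-gated cells. Gmnn, at 42.6 and 27.4 CPM in endothelial cells, against 12.1 and 15.6 CPM in resting LECs, was called with both pools and also without entry-gated cells (1.01). Prim1 stood at 14.2 and 8.43 CPM, against 4.75 and 8.14 CPM. Not called were Mcm7 (41.9 and 35.8 CPM in endothelial cells, against 32.0 and 34.4 CPM in resting LECs), Orc6 (35.9 and 42.2 CPM, against 36.7 and 39.8 CPM), Orc1 (1.496 and 2.11 CPM, against 1.96 and 2.54 CPM), Rfc1 (68.8 and 53.7 CPM, against 73.5 and 78.6 CPM), Rpa3 (41.9 and 44.3 CPM, against 34.3 and 52.2 CPM), Pold2 (11.2 and 21.1 CPM, against 19.7 and 20.8 CPM), Pold3 (21.7 and 25.3 CPM, against 16.4 and 18.2 CPM) and Pole (1.496 and 5.27 CPM, against 1.28 and 1.601 CPM). The groups overlapped or lay close to each other for most of these.

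A few genes were well above the resting LEC level in mural cells. Mcm6, a helicase subunit, was at 123.2 and 78.7 CPM in mural cells (72 and 64 UMIs), against 24.6 and 26.3 CPM in resting LECs (1.96 ± 0.18, SE, adjusted p = 5.7e-14, edgeR), a level between that of resting LECs and the 220.6 and 203.4 CPM of S LECs. Pola2, the regulatory subunit of polymerase alpha, was at 34.2 and 24.6 CPM in mural cells (20 and 20 UMIs), against 5.73 and 4.94 CPM in resting LECs (2.42 ± 0.32, adjusted p = 4.6e-09). Both were far above the resting values in either pool, and neither needed the entry-gated cells, without which the log2 fold changes were 1.85 for Mcm6 and 2.36 for Pola2. Prim2, the regulatory primase subunit (8 and 7 UMIs in mural cells, 2.24 ± 0.56, adjusted p = 0.00063), and Gins3 (4 and 4 UMIs, 2.60 ± 0.68, adjusted p = 0.0011) were also higher, from few UMIs. The partners of these genes in the same complexes were at other levels: Mcm7 stood at 30.8 and 18.5 CPM in mural cells, against 32.0 and 34.4 CPM in resting LECs, Mcm2 was lower (-1.12 ± 0.32, adjusted p = 0.0027), and Prim1 was at 10.3 and 3.69 CPM, against 4.75 and 8.14 CPM. In endothelial cells Mcm6 stood at 71.1 and 50.6 CPM (1.31 ± 0.17, adjusted p = 2.5e-09) and Pola2 at 25.4 and 9.48 CPM. These 4 genes were named after their values were seen.

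Dut was lower in mural cells, at 54.8 and 50.4 CPM, against 109.6 and 136.8 CPM in resting LECs (-1.23 ± 0.16, SE, adjusted p = 2.1e-09, edgeR), and Pold3 stood at 13.7 and 3.69 CPM, against 16.4 and 18.2 CPM (-1.10 ± 0.40, adjusted p = 0.02). Mural cells of the 2 pools differed: Pclaf stood at 42.8 and 3.69 CPM in mural cells, against 11.2 and 17.2 CPM in resting LECs, Gmnn at 20.5 and 6.15 CPM, against 12.1 and 15.6 CPM, Orc6 at 42.8 and 14.8 CPM, against 36.7 and 39.8 CPM, and Rrm2 at 11.98 and 1.23 CPM, against 3.84 and 4.94 CPM. Each of these was higher in pool 1 than in pool 2 and none was called. Pcna, at 83.8 and 51.7 CPM, against 40.0 and 53.9 CPM, was called higher (0.48 ± 0.19, adjusted p = 0.035), but without pool 1 its log2 fold change was -0.06 and without pool 2 it was 1.01. Rfc1 (61.6 and 55.3 CPM, against 73.5 and 78.6 CPM) was called lower at the threshold (adjusted p = 0.05), and Rpa3 (30.8 and 49.2 CPM, against 34.3 and 52.2 CPM), Pold2 (15.4 and 9.84 CPM, against 19.7 and 20.8 CPM) and Pole (6.84 and 1.23 CPM, against 1.28 and 1.601 CPM) were not called. Mcm10 and Orc1 had 0 UMIs among the 1245017 UMIs of mural cells, where 3 UMIs would be 2.41 CPM, so that no fold against resting LECs is given. Without these 2 genes the median of the other 43 was -0.08.

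Cycling vascular cells, those past the mitosis or histone gate, were too few for a test. They were 44 endothelial cells (38 and 6 in pools 1 and 2) and 7 mural cells, all of pool 1. Fewer than 20 were thus in at least 1 pool of each. Their values are pooled with exact 95% Poisson intervals that cover counting error only. The other endothelial cells came more evenly from the pools (267 and 194), so that cycling state was in part mixed with pool. Summed over the 45 genes, cycling endothelial cells had 3798 CPM (3567 to 4040), against 1378 CPM (1327 to 1430) in the other 461 endothelial cells. Their levels were 1085 CPM for licensing, 1534 for clamp, 329 for polymerase and 850 for nucleotide genes, against 487, 559, 122 and 211 CPM in the other endothelial cells. Within each pool every role sum was higher in cycling endothelial cells, for licensing genes 992 and 1655 CPM, against 533 and 423 CPM in the others. The level was higher for 43 of the 45 genes, against 41.8% of all genes tested in edgeR, and for 24 it was higher with intervals that did not overlap, against 3.69% of all genes. The exceptions were Cdt1, at 15.1 CPM (4.12 to 38.7) in cycling cells, against 15.3 CPM (10.4 to 21.7), and Orc1, with 0 of 264611 UMIs, at 0 CPM (0 to 13.9). Pclaf stood at 454 CPM (376 to 542) in cycling endothelial cells, against 52.3 CPM (42.9 to 63.3), and Rrm2 at 106 CPM (70.3 to 153), against 12.3 CPM (7.99 to 18.2). The 7 cycling mural cells, all of pool 1, had 5979 CPM over the 45 genes (5157 to 6895), against 932.5 CPM (879.6 to 987.7) in the other mural cells of both pools. By role they had 1329 CPM for licensing, 2499 for clamp, 538 for polymerase and 1613 for nucleotide genes. The other mural cells of pool 1 had 523, 460, 134 and 160 CPM.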

How the data were processed

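Lens epithelium of P2 pups was dissociated and sequenced by the authors as 2 droplet libraries (10x Genomics 3′ chemistry). The deposited values are raw UMI counts per gene and barcode, whole numbers made by the authors with Cell Ranger (version 6.1.1 per the file headers) on mm10, with no normalization. The aligner's other settings are not given in the sources used here.

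Barcodes were kept with 446 to 4261 genes and 949 to 20198 UMIs, the percentiles 2 and 97 of all barcodes, and at most 15% of UMIs from mitochondria. Per pool, the top 8% by Scrublet score were then removed as likely doublets. A cell passed a gate when the mean over the gate's list of log2(1 + UMIs per 10000) reached its limit and the list had at least 2 UMIs. Limits were read from the distributions of the gate scores. Cell types were gated first, then LECs in the order mitosis, histone, entry, late, early, Hes5 and Igfbp5, and 100 cells of 2 types or no type were left out. The files gave no group annotation of cells.

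UMIs were summed per pool and gate. The 10 groups of each pool, all with at least 20 cells, entered 1 fit of edgeR 4.0.16 (R 4.3.3, limma 3.58.1) with TMM factors, filterByExpr for low counts (13661 genes kept, among them all 45 and all 64 other pathway genes), the pool as a block, quasi-likelihood tests and Benjamini-Hochberg adjustment at 0.05. The SE printed with a log2 fold change was derived from the test, as the size of the change divided by the square root of its F statistic. The pool pairs the gates because they come from the same pups. The pool differences of 45 pairs of groups correlated at 0.01 to 0.29. On simulated counts of S against resting LECs (13220 genes), edgeR recovered 98 of 100 genes changed 2-fold and 100 of 100 changed 4-fold with 9 false calls among 13020 unchanged genes, and DESeq2 1.42.0 recovered 93 and 100 with 8. The simulation gave every gene the same fixed spread, not the one estimated here, and no difference between pools. Genes to change were drawn only from those above a set mean level. These figures hold for that setting and do not cover scarce genes such as Orc1. Counting used Python 3.11.15, NumPy 2.4.6, SciPy 1.17.1, pandas 2.3.3 and scanpy 1.11.5, and figures matplotlib 3.10.9.

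The 45 genes, the lists and the gates were chosen with earlier results of these data known. Levels are given in full for the 3 genes of each role (2 for nucleotide genes) highest over all LECs and for the genes with the largest and the smallest change between S and resting LECs in each role, and other genes were named after their values were seen. Among the other pathway genes the largest changes between S and resting LECs were named, of which 1 is not reported here. Alternatives were gate limits 25% higher or lower, no doublet removal, cycling cells with a late or early gate left out, thinning to 2000 UMIs, DESeq2, no filter, no block, each pool left out, and 2 added after the data were seen.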

Additional observations from a re-analysis of the deposited data

How the results depend on the processing

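All 45 genes stayed higher in S LECs under every alternative with a test, and all 45 in entry LECs except under thinning to 2000 UMIs (44, without Orc1). The counts of genes higher in G2M against S LECs and in S against entry LECs stayed within 1.5 times. The smaller groups of calls moved. With gate limits 25% lower, the counts higher became 2 (early), 8 (Hes5-high) and 10 (Igfbp5-poor), and the counts lower 0 (S against entry) and 3 (early), with sign changes for Cdc6 (0.0071), Mcm3 (0.037) and Mcm4 (0.084) in S against entry LECs and for Pclaf (0.11) in early LECs. With limits 25% higher, the counts lower became 1 (G2M against resting), 19 (early) and 2 (endothelial). Without doublet removal 3 were higher in early LECs. With thinning, the counts higher were 2 (early), 2 (late), 11 (Hes5-high) and 13 (Igfbp5-poor), and the counts lower 3 (early) and 20 (late), with Cdc6 in late LECs at 0.29. With DESeq2 the counts higher were 1 (early), 10 (Hes5-high) and 18 (Igfbp5-poor), and 1 was lower in S against entry LECs. Without the pool as a replicate block, which pairs the gates, 1 was lower in S against entry LECs, 6 were lower and 1 higher in early LECs, 5 were higher in Hes5-high and 13 in Igfbp5-poor LECs.

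Without mitosis-gated cells of the histone gate, 4 were lower in G2M against resting LECs, and Cdc6 (-2.73), Cdt1 (-0.77), Mcm2 (-0.076), Mcm6 (-0.41), Rfc1 (-0.045) and Rfc3 (-0.20) changed sign. Without vascular cells of the entry gate, 12 were higher and 4 lower in endothelial cells and 14 lower in mural cells, and Cdt1 (-0.0089), Mcm10 (-0.40), Cdc45 (-0.22) and Prim1 (-0.31) changed sign in endothelial cells. Leaving out a pool gave log2 fold changes from -5.21 to 2.37 for Prim2 and from -0.22 to 1.95 for Rrm2 in endothelial cells and from -0.061 to 1.01 for Pcna in mural cells. Gene calls over all comparisons that kept their direction and missed the threshold numbered 78 with thinning, 63 without the block, 60 with lower limits, 48 with DESeq2 and at most 20 under each other alternative with a test. Where no value shows it, the cause was not tested. With 1 pool left there is no test.

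The tests of cycling endothelial and mural cells, and of the cycling effect between endothelial cells and LECs, were not run with under 20 cells in a pool, nor were their alternatives. UMI counts limit rare genes: Orc1 and Mcm10 had 0 UMIs in mural cells.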

Other observations

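In 47 macrophage-gated cells (22 and 25), whose gene C1qa stood at 4116 and 5563 CPM in pools 1 and 2, the 45 genes summed to 1734 CPM (exact 95% Poisson interval 1554 to 1930, counting error only), with 658 CPM for licensing, 720 for clamp, 119 for polymerase and 238 for nucleotide genes. No test was made with so few cells.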
